A study of Mus musculus with 18 samples.

Results

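PU.1 binding was compared between 24 and 48 h post induction (hpi) in C10 cells on their way from pre-B cell to macrophage. There was 1 ChIP-seq library of each time point. The deeper library (24 hpi) was thinned at random to the 10204581 reads of the other on chromosomes 1 to 19, reads were counted in bins of 200 bp of the mouse genome mm9, and a bin was compared where it held 10 or more reads in either library. This rule kept 84279 of 12361703 bins, which is 0.682% of them. It fixes the level of the bins. Where only 1 library reached 10 reads, it also fixes which library held more. This was so for 19742 bins at 24 hpi and 17343 at 48 hpi. A bin was called higher at 1 time point where its reads, each plus 1, differed 2-fold or more and the exact 99% binomial interval of its share of reads left out an even split.

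The series followed C/EBPα, C/EBPβ and PU.1 by ChIP-seq in 18 libraries, with 1 library per factor and time point. C10 is a single line derived from HAFTL pre-B cells that carries C/EBPα fused to the estrogen receptor and marked with GFP. Both groups were the same line under the same agents, β-estradiol, which brings the fusion protein into the nucleus, together with IL-3 and CSF-1, and by their labels they differed only in the time after induction. The antibody was sc-352 against PU.1. There was no replicate library and no input library was analysed here, so differences between the time points were not tested. Every interval given covers counting error of reads, or of bins taken as independent, and not the spread between libraries. A difference between the 2 libraries cannot be told apart from a difference between the 2 time points.

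PU.1, encoded by *Sfpi1*, is an ETS-family transcription factor that both the B cell and the myeloid lineage need. It binds a purine-rich sequence around GGAA and marks many enhancers before neighbouring factors arrive. In B cells it often binds together with IRF4 or IRF8 on a composite ETS-IRF element, and in macrophages many of its sites lie next to motifs of AP-1, the dimers of Jun and Fos proteins, and of C/EBP.

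The sequences of the bins that differed most are shown first, since the motifs of called bins are compared further below. Each is a 200-bp bin on the plus strand of mm9, 5′ to 3′, with capitals marking every match on either strand to a consensus of PU.1 (GAGGAAGT), AP-1 (TGANTCA), ETS-IRF (GGAANNGAA), C/EBP (TTGCNNAA) or EBF1 (TCCCNNGGG). The first 3 are the most covered bins of the regions with the largest ratio of 48 over 24 hpi, ranked on reads plus 1 and named by the nearest gene, where the region near *Isoc1* is described without its sequence.
Fam78b, chr1:168901001-168901200: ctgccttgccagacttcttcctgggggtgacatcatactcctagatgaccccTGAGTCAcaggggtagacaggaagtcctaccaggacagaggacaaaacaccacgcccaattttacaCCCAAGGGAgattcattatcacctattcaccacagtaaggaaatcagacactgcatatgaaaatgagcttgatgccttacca
Ppm1l, chr3:69244801-69245000: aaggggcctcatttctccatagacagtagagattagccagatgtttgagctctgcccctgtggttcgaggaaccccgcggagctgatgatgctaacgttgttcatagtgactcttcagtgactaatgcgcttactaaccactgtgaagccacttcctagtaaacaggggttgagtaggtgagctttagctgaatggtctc
Cntnap5b, chr1:101656801-101657000: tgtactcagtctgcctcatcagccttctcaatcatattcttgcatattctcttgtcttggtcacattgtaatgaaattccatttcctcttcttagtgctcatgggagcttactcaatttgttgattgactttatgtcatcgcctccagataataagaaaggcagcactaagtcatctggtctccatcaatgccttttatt
The next 3 are those with the largest ratio of 24 over 48 hpi, ranked likewise.
Ttc9, chr12:82759201-82759400: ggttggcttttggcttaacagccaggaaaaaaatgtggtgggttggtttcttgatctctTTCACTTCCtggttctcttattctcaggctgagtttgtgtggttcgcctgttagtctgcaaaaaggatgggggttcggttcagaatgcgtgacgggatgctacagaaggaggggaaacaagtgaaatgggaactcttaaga
1700025G04Rik, chr1:153868001-153868200: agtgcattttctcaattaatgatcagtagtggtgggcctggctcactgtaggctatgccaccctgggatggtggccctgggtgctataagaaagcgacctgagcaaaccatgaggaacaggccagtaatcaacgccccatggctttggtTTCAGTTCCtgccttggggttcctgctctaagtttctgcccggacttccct
1810063B05Rik, chr8:128911601-128911800: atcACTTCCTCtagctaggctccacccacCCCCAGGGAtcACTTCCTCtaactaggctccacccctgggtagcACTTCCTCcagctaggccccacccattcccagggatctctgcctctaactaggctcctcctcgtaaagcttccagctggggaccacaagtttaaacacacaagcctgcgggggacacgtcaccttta
The *Fam78b* bin held an AP-1 and an EBF1 consensus, the *Ttc9* and *1700025G04Rik* bins an ETS-IRF consensus, and the *1810063B05Rik* bin 3 copies of the PU.1 consensus and 1 of EBF1 in a repeated stretch. The *Ppm1l* and *Cntnap5b* bins held no match to the 5 consensus sequences.

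Stretches of 80 bp around a consensus are added to show the motifs in place. They were chosen after the values were seen, by the largest GC-scaled ratio among regions not yet shown that held the motif. The next 3 were higher at 48 hpi and held an AP-1 consensus.
Shfm1, chr6:6447001-6447080: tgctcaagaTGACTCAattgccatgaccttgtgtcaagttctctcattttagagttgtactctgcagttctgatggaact
Plcl1, chr1:55467673-55467752: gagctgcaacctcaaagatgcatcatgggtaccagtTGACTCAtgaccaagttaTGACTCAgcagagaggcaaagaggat
Clec4a2, chr6:123066478-123066557: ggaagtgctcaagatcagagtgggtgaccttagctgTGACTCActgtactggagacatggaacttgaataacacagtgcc
The last 3 held an ETS-IRF consensus and were higher at 24 hpi.
Dicer1, chr12:106016001-106016080: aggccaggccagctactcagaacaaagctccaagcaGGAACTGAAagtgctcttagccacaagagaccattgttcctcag
Fam49a, chr12:12271263-12271342: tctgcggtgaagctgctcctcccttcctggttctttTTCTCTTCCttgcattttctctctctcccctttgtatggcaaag
Rgs20, chr1:5016001-5016080: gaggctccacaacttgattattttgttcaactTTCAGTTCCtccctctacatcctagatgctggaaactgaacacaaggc
In the *Plcl1* stretch 2 copies of the AP-1 consensus stood close together, and *Clec4a2* encodes a C-type lectin receptor of myeloid cells. The *Clec4a2* bin held 4 reads at 24 hpi and 31 at 48 hpi, and the *Rgs20* bin 28 and 7.

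The libraries of 24 and 48 hpi held 11094617 and 10204581 reads of 36 bases on chromosomes 1 to 19, and neither held 2 reads that shared position and strand. The paper states that identical reads were filtered out after alignment, so this is no measure of library quality. The label was checked by the PU.1 consensus, which occurred in 15.2% of the compared bins and in 1.2% of all bins. Macrophage and pre-B identity could not be checked, since binding near a gene is not its expression. Base composition moved with the comparison. Among background bins, those with fewer than 5 reads in both libraries, the ratio of reads at 48 over 24 hpi was 1.20 below 40% GC, 0.928 at 45% to 50% GC and 0.477 at 70% GC or more. A second scaling, chosen after the data were seen, therefore divided the ratio of each bin by the background ratio of its GC class (classes 2% wide). Counts and shares are given as scaled by depth, the planned scaling, and as scaled by GC class.

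Most bins were not called in either direction. Scaled by depth, 3460 of the 84279 bins were higher at 48 hpi and 2425 higher at 24 hpi. These are 4.11% and 2.88% of the compared bins. Scaled by GC class, 3951 bins were higher at 48 hpi (4.69%) and 1012 higher at 24 hpi (1.2%). The share of calls that were higher at 48 hpi was 58.8% by depth and 79.6% by GC class. When the median of the GC-scaled ratios was in addition set to 1, 1664 bins were higher at 48 hpi and 2240 higher at 24 hpi, so the balance between the directions depended on the scaling, and no net direction is given.

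The share of reads in compared bins differed little, and no overall level of PU.1 can be read from libraries thinned to the same depth. Compared bins took 16.2% of the reads at 24 hpi and 17.7% at 48 hpi. The median log2 ratio of 48 over 24 hpi was 0.06 by depth and 0.26 by GC class. Calls by GC class were not centred on that median, so they, and the shares and list counts built on them, still hold this offset. Of the compared bins, 47194 (56%) held 10 or more reads in both libraries, 19742 at 24 hpi only and 17343 at 48 hpi only. The bins just inside the threshold, with 10 reads in the higher library, numbered 10393 and had a median log2 ratio of -0.14, and the 13382 bins just outside, with 9 reads, had -0.15. Across bins, Pearson's r of log2 reads was 0.62, and 0.80 where both libraries held 10 or more reads. That is a description over bins that share 2 libraries and their base composition.

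**Figure D1:**
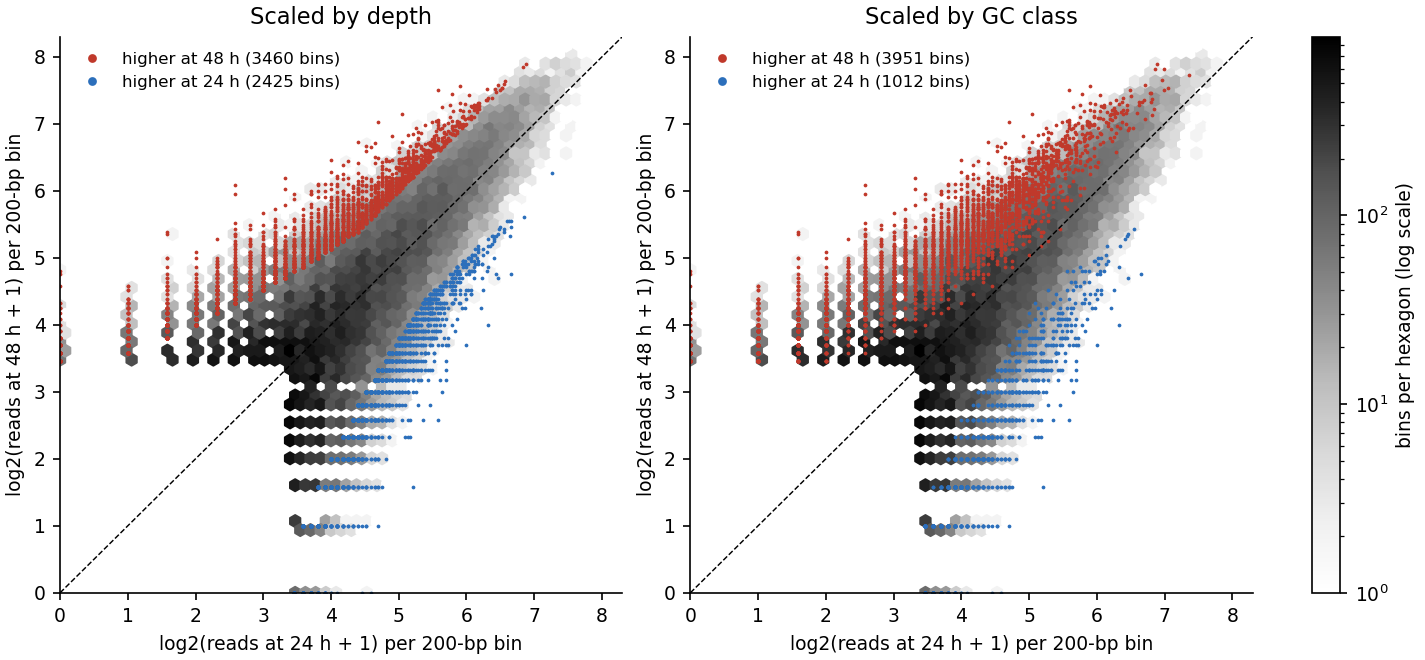
Reads per 200-bp bin at 24 hpi (x axis) and 48 hpi (y axis), as log2 of reads plus 1, for the 84279 compared bins, with grey hexagons shaded by the number of bins. Red and blue points are bins called higher at 48 and at 24 hpi, 3460 and 2425 scaled by depth (left) and 3951 and 1012 scaled by GC class (right), and the dashed line marks equal reads.

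The median ratio was larger in more strongly bound bins. The median log2 ratio was -0.29 in bins with a mean of 5 to 10 reads, 0.12 at 20 to 40 reads and 0.40 at 80 reads or more by depth. By GC class the same medians were 0.00, 0.30 and 0.58. Since these classes were formed from the compared reads themselves, bins were also chosen by 10 or more reads of PU.1 at 12 hpi, which the rule did not use. Among these 94361 bins, the GC-scaled median was 0.09 at 10 to 20 reads and 0.44 at 80 reads or more, and 2504 (2.65%) were higher at 48 hpi against 855 (0.906%) higher at 24 hpi. By depth the medians of these classes were -0.14 and 0.18. The depth-scaled calls over all these bins were close to even, with 2.32% higher at 48 hpi and 2.27% higher at 24 hpi. They did not follow the medians. At 10 to 20 reads 1.54% were higher at 48 hpi and 1.30% at 24 hpi, and at 20 to 40 reads 3.31% and 3.14%. At 40 to 80 reads they were 3.96% and 5.09%, and at 80 reads or more 2.88% and 3.19%.

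GC content moved with the depth-scaled calls. The median log2 ratio of compared bins went from 0.63 below 40% GC to -0.94 at 70% GC or more, beside background ratios that ran in the same order. Bins called higher at 48 hpi made up 10.8% of the compared bins below 40% GC and none of the 1277 bins at 70% or more. Bins called higher at 24 hpi made up 0.396% and 11.7% of these. With GC-class scaling the medians lay between 0.11 and 0.36 in every class. Calls at 48 hpi ran from 6.03% at 40% to 45% GC to 1.64% in the highest class. Calls at 24 hpi ran from 1.34% at 45% to 50% GC to 0.313% in the highest class. Background ratios of single chromosomes lay between 0.943 and 1.04.

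**Figure D2:**
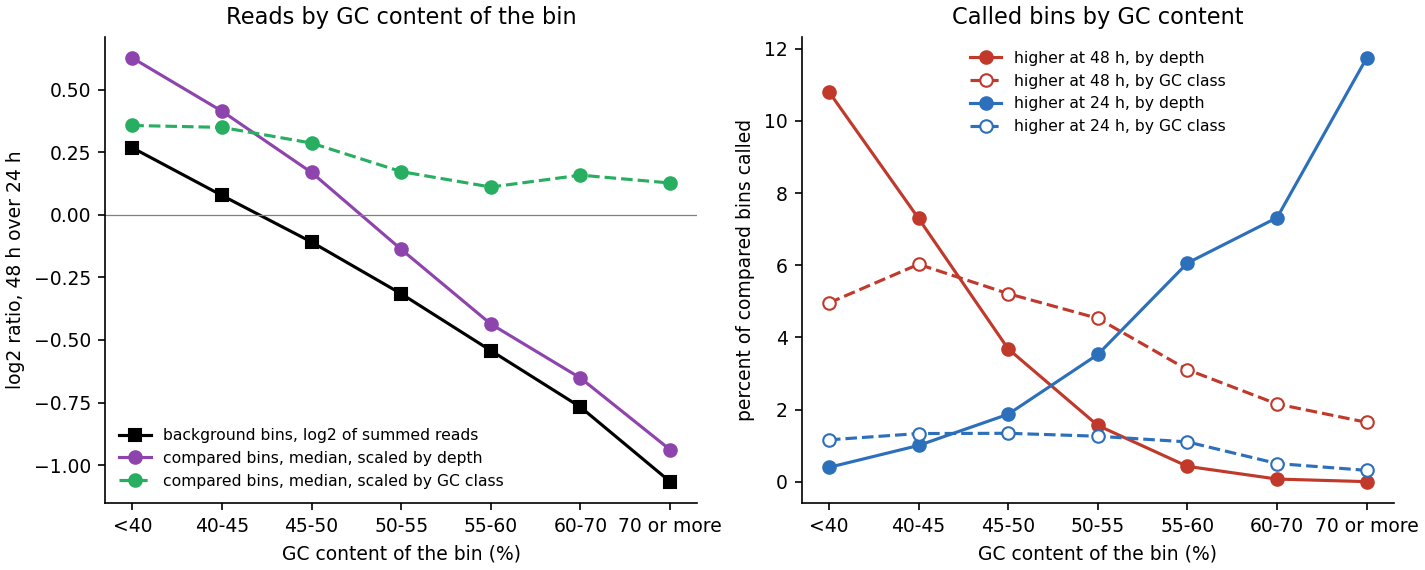
Left, log2 ratio of 48 over 24 hpi (y axis) by GC content of the bin (x axis, 7 classes) for background bins and for compared bins under both scalings. Right, percent of compared bins called in each direction, where the depth-scaled shares (filled points) run from 10.8% to 0 for 48 hpi and from 0.396% to 11.7% for 24 hpi, and the GC-scaled shares (open points) reach at most 6.03%.

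The motifs of bins higher at 48 hpi and of bins higher at 24 hpi were compared, with the AP-1 and ETS-IRF consensus given first. The AP-1 consensus was found in 966 of 3951 bins higher at 48 hpi (24.4%, exact 95% interval 23.1% to 25.8%), in 47 of 1012 bins higher at 24 hpi (4.64%, 3.43% to 6.13%) and in 9.38% of the bins not called, with GC-class scaling. It occurred in 5.96% of all bins of the genome. By depth the shares were 23.6%, 3.63% and 9.63%. The ETS-IRF consensus went the other way. It was found in 252 of 1012 bins higher at 24 hpi (24.9%, 22.3% to 27.7%), in 337 of 3951 bins higher at 48 hpi (8.53%, 7.68% to 9.44%) and in 11.5% of the bins not called, beside 6.4% of all bins. By depth these shares were 17.3%, 9.6% and 11.4%. Of the depth-scaled calls, 1699 of 3460 at 48 hpi and 694 of 2425 at 24 hpi held 10 or more reads in both libraries. The others passed the read minimum through the higher library alone. With 10 reads in both, AP-1 was in 23.0% of bins higher at 48 hpi and ETS-IRF in 24.1% of bins higher at 24 hpi. The opposite directions were not counted there, and GC-scaled calls were not split in this way. The part of the read minimum in these shares was not tested.

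Both patterns held among bins of like composition. At 45% to 50% GC, the AP-1 consensus was in 25.8% of the 1174 bins higher at 48 hpi, 6.62% of the 302 bins higher at 24 hpi and 10.4% of those not called. The ETS-IRF consensus was in 8.09%, 29.8% and 12.5% of these. The exact 95% intervals of the bins higher at 48 and at 24 hpi did not overlap for either motif. Intervals of shares take bins as independent, although neighbouring bins can share a site and all bins come from the same 2 libraries. Whether such intervals overlap is therefore a description and not a test between time points. The same order was seen in bins chosen by PU.1 at 12 hpi. There, 7.74% of bins with AP-1 were higher at 48 hpi and 0.512% higher at 24 hpi, against 2.24% and 0.938% of bins without it. Of bins with ETS-IRF, 1.92% were higher at 48 hpi and 2.09% higher at 24 hpi, against 2.75% and 0.745% of bins without it.

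**Figure D3:**
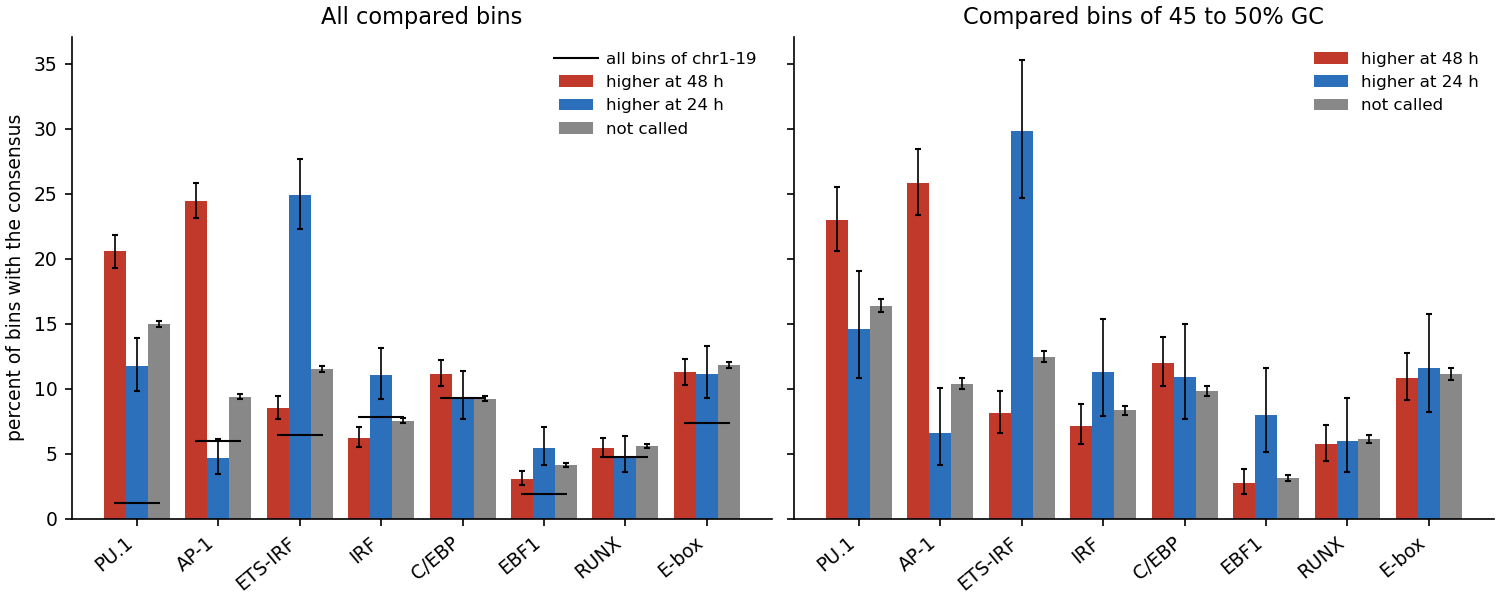
Percent of bins (y axis) that hold each of 8 consensus sequences (x axis) in bins called higher at 48 hpi, higher at 24 hpi or not called, with GC-class scaling, for all compared bins (left, with black lines for all bins of chromosomes 1 to 19) and for those of 45% to 50% GC (right). Error bars are exact 95% binomial intervals that take bins as independent. AP-1 is highest in bins higher at 48 hpi (24.4% and 25.8%) and ETS-IRF in bins higher at 24 hpi (24.9% and 29.8%).

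Values also differed with the letters of the consensus. Compared bins with TGACTCA or TGAGTCA, the form most often bound by Jun and Fos, numbered 6212 and had a GC-scaled median log2 ratio of 0.62, with 12.4% higher at 48 hpi. The 2472 bins with TGAATCA or TGATTCA had 0.48 and 9.59%. For ETS-IRF, the 5001 bins with GGAANTGAA, the form of the composite element of B cells, had a median of 0.11, with 3.3% higher at 48 hpi and 3.62% higher at 24 hpi. Bins with other forms of the ETS-IRF consensus, 4716 in number, had 0.17, with 3.65% and 1.51%. Of all compared bins, 4.69% and 1.2% were called in these directions. These subdivisions were made after the data were seen.

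The PU.1, EBF1 and IRF consensus sequences also had intervals that did not overlap between the directions with GC-class scaling. The PU.1 consensus itself was in 20.6% of bins higher at 48 hpi (19.3% to 21.8%), 11.8% of bins higher at 24 hpi (9.84% to 13.9%) and 15% of bins not called, with GC-class scaling. Bins with both the PU.1 and the AP-1 consensus (1093) had a GC-scaled median log2 ratio of 0.61 and 15.8% higher at 48 hpi, bins with AP-1 but not PU.1 0.57 and 10.8%, and bins with PU.1 but not AP-1 0.32 and 5.45%. The PU.1 and ETS-IRF consensus sequences can share letters, and 1579 bins held both. Where ETS-IRF came without the PU.1 consensus, 3.17% of 8138 bins were higher at 48 hpi and 2.8% higher at 24 hpi, beside 4.69% and 1.2% of all compared bins. The EBF1 consensus, named for a B cell factor, was in 3.09% of bins higher at 48 hpi (2.57% to 3.68%), 5.43% of bins higher at 24 hpi (4.12% to 7.02%) and 4.1% of those not called, and at 45% to 50% GC in 2.73%, 7.95% and 3.11%. It occurred in 1.87% of all bins. The IRF consensus GAAANNGAA was in 6.23% (5.49% to 7.03%), 11.1% (9.20% to 13.2%) and 7.53%, beside 7.83% of all bins, and in 7.4%, 7.18% and 7.53% by depth. Among depth-scaled calls of 45% to 50% GC it was in 6.27% of bins higher at 48 hpi (4.72% to 8.14%) and 11.2% of bins higher at 24 hpi (8.32% to 14.6%), and among GC-scaled calls there in 7.16% (5.75% to 8.78%) and 11.3% (7.92% to 15.4%), where the intervals overlapped. By depth EBF1 was in 1.71%, 8.33% and 4.04%, and the PU.1 consensus in 20.5%, 12.5% and 15.1%. C/EBP was in 11.2% (10.2% to 12.2%), 9.39% (7.66% to 11.4%) and 9.23%, beside 9.28% of all bins, and by depth in 12.9% (11.8% to 14.1%), 7.38% (6.37% to 8.50%) and 9.22%, so that its intervals for the 2 directions overlapped with GC-class scaling and not by depth.

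The other 7 consensus sequences searched had overlapping intervals in the bins higher at 48 and at 24 hpi, with GC-class scaling. RUNX (TGTGGTT) was in 5.44% of bins higher at 48 hpi and 4.84% of bins higher at 24 hpi, beside 4.73% of all bins. The E-box (CAGCTG) was in 11.3% and 11.2%, beside 7.37%, and by depth in 8.64% (7.73% to 9.63%) and 14.3% (12.9% to 15.7%). NF-kB (GGGANTTCC) was in 1.24% and 1.09%, beside 0.502%, and by depth in 0.983% (0.681% to 1.37%) and 2.02% (1.499% to 2.66%). For these 2 the intervals did not overlap by depth. The MARE letters TGCTGAC were in 4.3% (3.69% to 4.98%) and 2.96% (2.01% to 4.21%), beside 2.73%. The ETS consensus of promoters (CCGGAAGT) was in 38 of 3951 and 3 of 1012 bins, the CRE (TGACGTCA) in 21 and 0, and EGR (GCGTGGGCG) in 4 and 0, beside 0.124%, 0.111% and 0.0133% of all bins.

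The earlier libraries of the course were not used to choose or call the bins. With GC-class scaling, bins higher at 48 hpi held on average 16.03 scaled PU.1 reads (reads per 10000000 of the library) at 0 hpi, 17.1 at 3 hpi, 20.2 at 12 hpi, 14.8 at 24 hpi and 36.5 at 48 hpi. Bins higher at 24 hpi held 19.7, 24.4, 27.9, 22.9 and 5.78 in the same order, and bins not called 18.6, 21.4, 24.5, 19.4 and 20.4. The values of 24 and 48 hpi follow from the choice of the bins, and those of the earlier times depend on the read minimum, since 1699 of the 3460 bins higher at 48 hpi by depth held 10 or more reads in both libraries and the others passed through 48 hpi alone. Of these 3460 bins, 52.2% were bound by PU.1 at 0 hpi (8 or more reads within 600 bp and 5 times the library mean). That share was 74.0% where both libraries needed 10 reads and 33.2% with a 3-fold threshold. No difference from the 71.2% of bins not called is read from it.

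Bins with different motifs had different means over the course, given here within 45% to 50% GC. All passed the read minimum at 24 or 48 hpi, so the means at these times and their ratios depend on that choice. Bins that passed through 48 hpi alone were not counted by motif. The 2511 bins with AP-1 held a mean of 13.7, 16.7, 19.7, 17.8 and 24.6 PU.1 scaled reads at 0, 3, 12, 24 and 48 hpi. They were lowest of the groups at 0 hpi and close to the ETS-IRF bins at 48 hpi. The part of the read minimum in this was not tested. The 2809 bins with ETS-IRF held 27.4, 31.1, 29.7, 23.1 and 24.7, with their highest mean at 3 hpi. The 17500 bins with neither held 18.4, 20.9, 22.3, 18.7 and 21.5. From 24 to 48 hpi the ratio of the means was 1.38 with AP-1, 1.07 with ETS-IRF and 1.15 with neither. Bins with AP-1 that lacked PU.1 at 0 hpi (1241) had a mean of 2.75 at 0 hpi, 11.3 at 24 hpi and 17.6 at 48 hpi, a ratio of 1.56 over the last interval. Bins that lacked both PU.1 at 0 hpi and AP-1 (5810) had 3.35, 11.3 and 13.4, a ratio of 1.19. The low means at 0 hpi follow from choosing bins without PU.1 at that time, and the rise from there is not read as a result.

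**Figure D4:**
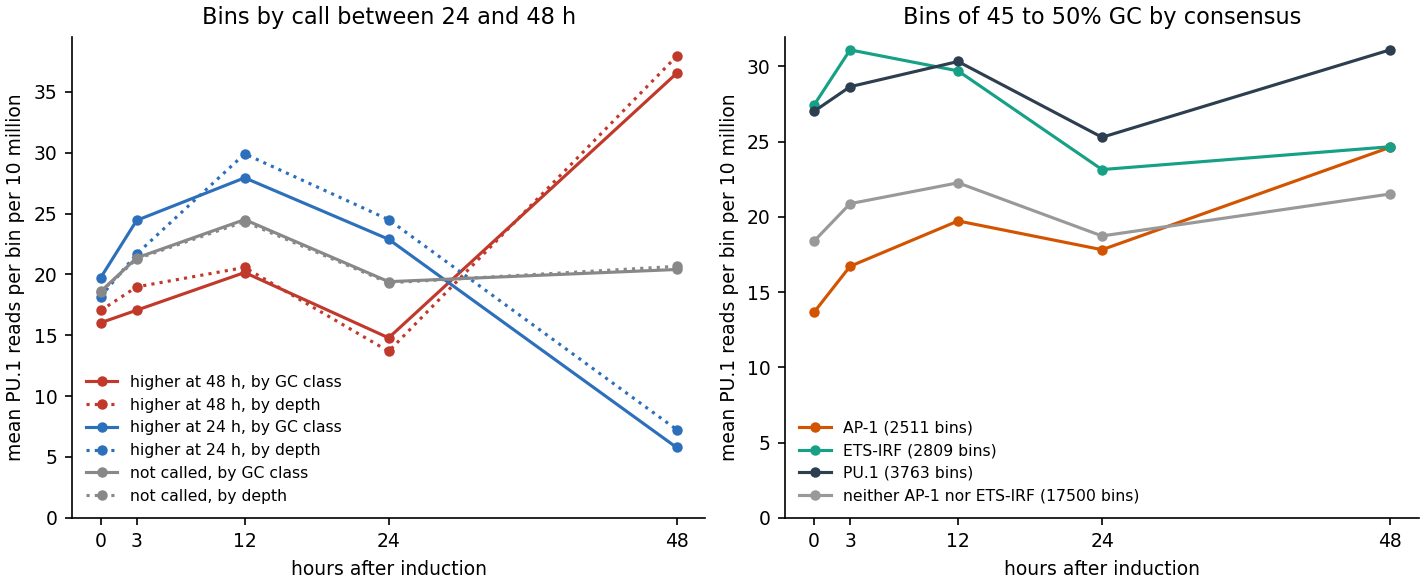
Mean PU.1 reads per bin per 10000000 reads (y axis) at 0, 3, 12, 24 and 48 hours after induction (x axis), 1 library per time. Left, bins by their call between 24 and 48 hpi under both scalings, with 36.5 and 5.78 reads at 48 hpi for bins higher at 48 and at 24 hpi scaled by GC class, and right, bins of 45% to 50% GC by consensus, where the mean is 13.7 at 0 hpi and 24.6 at 48 hpi for AP-1 bins and 27.4 and 24.7 for ETS-IRF bins.

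Most called bins lay away from promoters. A promoter was taken as the 1 kb on either side of a protein-coding transcription start site (TSS). With GC-class scaling, 9.97% of bins higher at 48 hpi (9.06% to 10.9%) and 8.4% of bins higher at 24 hpi (6.76% to 10.3%) were at promoters, against 17.9% of bins not called. Scaled by depth, the same shares were 5.29%, 24.8% and 17.7%, so the promoter share of bins higher at 24 hpi lay above that of uncalled bins under the planned scaling and below it with GC-class scaling. Promoter bins had a median GC content of 55.5% and other bins 47.5%. The median distance to the nearest TSS was 15682 bp for bins higher at 48 hpi, 14660.5 bp for bins higher at 24 hpi and 11049 bp for bins not called by GC class. Introns held 48.9%, 46.8% and 47.2% of these bins, and intergenic sequence 45.3%, 47.4% and 44%.

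Binding of the C/EBP factors was read in the same bins. C/EBPα was bound at 48 hpi in the 600 bp around 22% of bins higher at 48 hpi, 22.1% of bins higher at 24 hpi and 26.7% of bins not called, by GC class. By depth these were 18.5%, 31.8% and 26.7%. C/EBPβ was bound at 48 hpi at 29% (27.6% to 30.4%), 23.3% (20.7% to 26.1%) and 27.7% of them. Mean C/EBPβ scaled reads went from 12.7 at 24 hpi to 18.7 at 48 hpi around bins higher at 48 hpi, a ratio of 1.48, from 13.8 to 17.6 (1.28) around bins not called, and from 12.0 to 13.4 (1.11) around bins higher at 24 hpi. The ratios for C/EBPα were 1.03, 0.914 and 0.797 in that order. By depth the ratios for C/EBPβ were 1.46, 1.28 and 1.19 and for C/EBPα 1.06, 0.916 and 0.802. Base composition of the C/EBP libraries was not scaled, and its part was not tested.

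Called bins were joined where they touched or lay 1 bin apart. By depth this gave 3085 regions higher at 48 hpi, 364 of them of 2 or more bins, and 2225 regions higher at 24 hpi, 191 of them of 2 or more bins. Of these, 1682 and 716 held 30 or more reads in the higher library. The 12 with the largest ratio of reads plus 1 in each direction and a TSS within 100 kb are described by their nearest gene, although the bin can lie in an intron of another gene. The ratios describe regions picked for their size and are given without a test, and the ratios printed are of the reads themselves.

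All 12 regions higher at 48 hpi were called under both scalings. The region 30.4 kb upstream of *Fam78b* held 2 reads at 24 hpi and 40 at 48 hpi, a ratio of 20 (95% interval 5.19 to 171). Earlier it held 5.81, 1.56 and 2.87 scaled reads at 0, 3 and 12 hpi, so of the 5 times only 48 hpi gave many reads. A region upstream of *Isoc1* held 5 and 67 reads, the largest count at 48 hpi among regions of a single bin here. In an intron 98.2 kb from the start of *Ppm1l*, which encodes a protein phosphatase, 2 and 31 reads were counted. The region 12.4 kb upstream of *Cntnap5b*, of the contactin-associated protein family, held 7 and 80 reads, a ratio of 11.4 (5.3 to 29.3).

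The other regions higher at 48 hpi lay near genes of varied roles. In an intron of *Gm15800*, 4.62 kb from its start, 6 and 69 reads were found, and the bin held a PU.1 consensus. The region 7.03 kb downstream of the start of *Fzd4*, a Frizzled receptor of Wnt and Norrin signals, held 3 and 32 reads. *Vti1a*, a SNARE protein of the Golgi and endosomes, had 3 and 31 reads in an intron. *Cab39l*, a scaffold of the LKB1 kinase complex, had 3 and 38, *Shfm1*, a small subunit of the proteasome, 5 and 50, *Plcl1*, related to phospholipase C, 4 and 38, and *Zfp462*, a zinc-finger protein, 4 and 38. The most covered bin held an AP-1 consensus near *Fam78b*, *Shfm1* and *Plcl1*, 3 of the 12, and an ETS-IRF consensus near *Fzd4*. Of all compared bins, 10.0% held AP-1 and 11.5% ETS-IRF.

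*Fam49a* appeared in both directions. Its region 82.4 kb downstream of the start held 4 reads at 24 hpi and 48 at 48 hpi, and another 2.36 kb downstream of the start held 33 and 4. The second, a single bin, held an ETS-IRF and an IRF consensus. Both are in introns, and both calls were the same with GC-class scaling.

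Of the 12 regions higher at 24 hpi, 9 were also called by GC class. *Ttc9*, in an intron 26.9 kb from its start, held 33 reads at 24 hpi and 2 at 48 hpi, a ratio of 16.5 for 24 over 48 hpi (4.22 to 142). Its strongest bin held 15.98, 26.5 and 22.9 scaled reads at 0, 3 and 12 hpi, so reads were present at every earlier time. *1700025G04Rik* had 55 and 4 reads, a ratio of 13.8 (5.08 to 52.2), with 27.6, 28.1 and 50.7 scaled reads at 0, 3 and 12 hpi in its strongest bin. *1810063B05Rik* had 47 and 5 reads and *Gm6723* 53 and 6.

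The region 34.4 kb upstream of *Ets2*, which encodes another ETS factor, held 33 and 4 reads, that 25.9 kb upstream of *Dicer1*, the ribonuclease that matures microRNAs, 39 and 5, and that 26.2 kb from the start of *Abtb1* 40 and 5. *Cnpy1* had 58 and 8. The remaining 3 were not called with GC-class scaling. They were *Paqr6* with 35 and 4 reads at 60% GC in its strongest bin, *Pik3cg*, the gamma catalytic subunit of PI 3-kinase in leukocytes, with 34 and 4 at 57%, and *Cyp2w1*, a cytochrome P450, with 40 and 5 at 59%. An ETS-IRF consensus was present in the most covered bins of *Ttc9*, *1700025G04Rik*, *Abtb1*, *Fam49a* and *Dicer1*, 5 of the 12. The PU.1 consensus was in those of *1810063B05Rik*, *Paqr6* and *Cnpy1*. Among the 12 regions higher at 48 hpi it was only in that of *Gm15800*, the reverse of its order over all called bins. Of all compared bins, 11.5% held ETS-IRF and 15.2% PU.1. No share is read from 12 regions picked for their ratio.

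**Figure D5:**
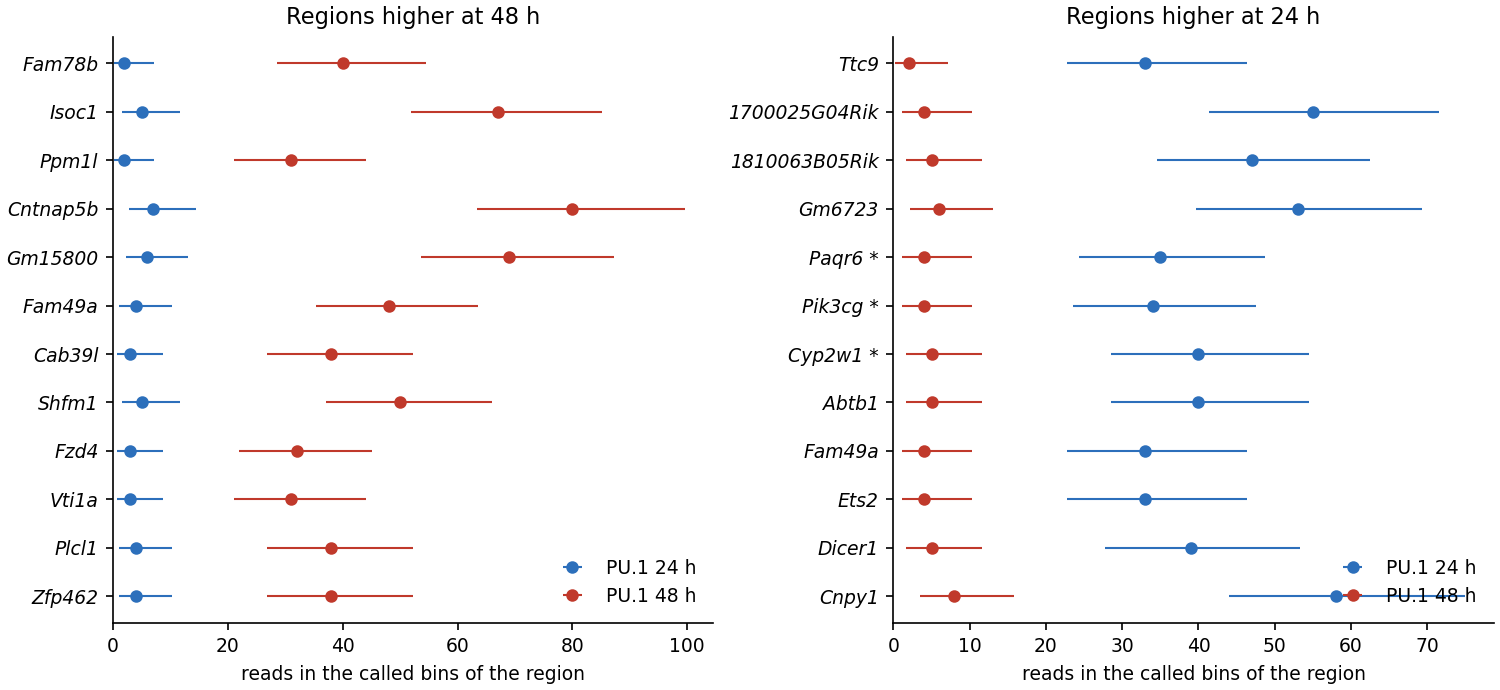
Reads at 24 hpi (blue) and 48 hpi (red) in the called bins of the 12 regions with the largest ratio of reads plus 1 in each direction (x axis), named by the nearest gene (y axis), with exact 95% Poisson intervals as bars. Regions higher at 48 hpi hold 31 to 80 reads at that time and 2 to 7 at 24 hpi, regions higher at 24 hpi hold 33 to 58 and 2 to 8, and an asterisk marks the 3 regions whose strongest bin was not called with GC-class scaling.

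Each gene was described by its most covered bin (both libraries summed) among bins whose nearest TSS, within 100 kb, was its own. Of 12873 genes with such a bin, 664 (5.16%) were higher at 48 hpi and 366 (2.84%) higher at 24 hpi by depth, and 836 (6.49%) and 160 (1.24%) by GC class. The median log2 ratio over these genes was 0.11 by depth and 0.37 by GC class. The lists of genes below were chosen with results of these data known. Each gene's bin can lie far from it and need not act on it.

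Inflammatory cytokines and chemokines had the most calls of the 8 lists with GC-class scaling, but not by depth. Of 24 genes, 22 had a bin. By GC class 5 were higher at 48 hpi (22.7%, beside 6.49% of all genes) and none higher at 24 hpi, with a median of 0.58. By depth 1 was higher at 48 hpi, beside 5.16% of all genes, and 0 at 24 hpi. The calls by GC class were not centred on the median of 0.37 over all genes. *Il1b*, the precursor of interleukin 1β, held 115 reads at 24 hpi and 224 at 48 hpi in the bin 2.43 kb upstream, which had a PU.1, an AP-1 and an ETS-IRF consensus and a GC-scaled log2 ratio of 1.05. Its course over 0, 3 and 12 hpi was 125, 184 and 164 scaled reads. The other 4, named because they were called, were the chemokines *Ccl3* (24 and 46 reads), *Ccl9* (18 and 50) and *Cxcl2* (17 and 32) and the macrophage growth factor *Csf1* (75 and 111). *Ccl2* (121 and 190), *Ccl6* (72 and 116) and *Tnfaip3*, an inhibitor of NF-kB signalling (103 and 85), were not called.

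Macrophage receptors and adhesion molecules had 29 of 30 genes with a bin and a GC-scaled median of 0.57, with 1 higher at 48 hpi and none higher at 24 hpi by GC class (2 and 1 by depth). The gene called by both was *Fcgr3*, an Fc receptor, whose bin at its start held 20 and 43 reads after 2.91 scaled reads at 0 hpi. *Clec4e*, a lectin receptor, held 34 and 72 reads and was called by depth only. *Marco*, a scavenger receptor, held 24 and 8 and was higher at 24 hpi by depth only. Of the genes with the most reads, *Tlr4*, the receptor of endotoxin, held 143 and 182, *Tyrobp*, a signalling adaptor, 127 and 137, *Cd36*, a scavenger receptor, 104 and 195, and *Sirpa*, an inhibitory receptor, 116 and 161. None of these 4 was called.

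Myeloid transcription factors, *Sfpi1* among them, had 25 of 28 genes with a bin and a GC-scaled median of 0.66, the highest of the 8 lists, with 2 higher at 48 hpi and 1 higher at 24 hpi under either scaling. By depth the median was 0.15, and -0.18 with bins within 20 kb of a TSS only. At the *Sfpi1* gene itself, the bin 736 bp inside held 124 reads at 24 hpi and 107 at 48 hpi at 64% GC, a log2 ratio of -0.21 by depth and 0.64 by GC class, so that its direction depended on the scaling and it was not called. *Runx1* held 140 and 189, *Jun*, a subunit of AP-1, 121 and 118, and *Atf3*, another bZIP factor, 86 and 132. *Mitf*, a regulator of lysosomal and osteoclast genes, held 41 and 103 reads and was called by both scalings. *Klf6* (52 and 109) was called by depth only and *Bhlhe40* by GC class only, with a ratio of 1.80 (1.29 to 2.55). *Pparg*, a lipid-sensing nuclear receptor of macrophages, held 39 and 10 reads and was higher at 24 hpi by both.

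Lysosome and phagocyte effectors had 23 of 26 genes with a bin, a GC-scaled median of 0.33, and 2 higher at 48 hpi and 1 higher at 24 hpi by GC class (1 and 1 by depth). *Ctsl*, a lysosomal cysteine protease, held 6 reads at 24 hpi and 38 at 48 hpi in the bin 22.1 kb upstream, a ratio of 6.33 (2.66 to 18.3), and was called by both scalings. *Ctsb*, another lysosomal protease, held 86 and 147 and was called by GC class only. *Lpl*, lipoprotein lipase, held 28 and 10 and was higher at 24 hpi by both. *Ctsd* held 142 and 166 reads after 8.72 scaled reads at 0 hpi and 97.5 at 12 hpi, so most of the reads were present by 12 hpi. *Lyz1* (110 and 212), *Lgmn* (107 and 167) and *Cyba*, a subunit of the phagocyte oxidase (140 and 161), were not called.

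Genes of the B cell program are read beside the shares of all genes given above. B-lineage transcription factors had 19 of 20 genes with a bin, none called in either direction by GC class, and a median of 0.42. By depth *Pou2f2*, the octamer factor Oct-2, was higher at 24 hpi with 98 and 46 reads at 56% GC. *Bcl11a* held 178 and 152, *Bach2*, a repressor that competes at AP-1-like sites, 106 and 136, *Bcl6* 116 and 174 and *Tcf4* 97 and 170. The pre-B cell receptor, surface and recombination genes had 25 of 28 with a bin, a median of 0.36, and 1 higher at 48 hpi by GC class, *Cd38* with 60 and 125 reads, which was also called by depth. *Bank1*, a B cell scaffold protein, held 54 and 23 reads and was higher at 24 hpi by depth only. *Cd74* (129 and 137), *Cd93* (119 and 189), *Lyn* (112 and 128) and *Blnk* (96 and 123) were not called.

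For comparison, 20 of 24 housekeeping genes had a bin, with a GC-scaled median of 0.37 and no call by GC class. *Actb* held 143 and 138, *Ywhaz* 108 and 171, *Rab7* 65 and 69 and *Reep5* 51 and 33 reads. By depth *Hnrnpa2b1* was called, with 25 and 53 reads. T cell and erythroid genes, which mark other cell types, had 11 of 20 genes with a bin, a median of 0.03 and 1 call under both scalings, *Gata3* with 46 and 113 reads. *Cd28* held 59 and 56, *Cd4* 36 and 42 and *Tal1* 37 and 29. By depth the medians of the lists were 0.45 for the cytokines, 0.40 for the receptors, 0.16 for the lysosomal genes, 0.07 for the B-lineage factors, 0.09 for the pre-B genes, -0.03 for the housekeeping genes and -0.13 for the T cell and erythroid genes. With bins within 20 kb of a TSS only, they were 0.38 for the B-lineage factors, 0.30 for the cytokines and 0.47 for the receptors, so the order of the lists depended on that distance. The lists were not tested against each other.

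The 6 bins with the most reads were not called under either scaling. With 1 read kept per position and strand, a bin of 200 bp can hold only a limited number of reads. These bins lie nearest to that limit. Its part in their ratios was not tested, and the intervals do not cover it. The bin nearest to *9830001H06Rik* held 271 reads at 24 hpi and 288 at 48 hpi, a ratio of 1.06 (0.897 to 1.26). Those nearest to *Lifr*, the receptor of leukemia inhibitory factor, held 220 and 252, to *Gm11084* 218 and 248, to *Akap5* 212 and 247, and to *Pgk2*, at 365 kb, 229 and 220. The *Pgk2* bin held no consensus searched. Around it lay 423 and 454 C/EBPα scaled reads at 24 and 48 hpi and 174 and 281 of C/EBPβ. These were far more than around the others of these 6 bins. Some list genes named above also had many, with 301 and 272 of C/EBPα around the *Sfpi1* bin. Around the *Il1b* bin lay 220 and 212 of C/EBPβ. Whether the reads of the *Pgk2* bin are PU.1 binding was not tested. The bin nearest to *Gm8420* held 192 and 256, a ratio of 1.33 (1.10 to 1.62), the only one of the 6 whose interval left out 1. All 6 were well covered at 0 hpi, with 227 to 446 scaled reads.

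The interval from 24 to 48 hpi was set beside the others of the PU.1 course, with all 5 libraries thinned to 6414863 reads and GC-class scaling. Neighbouring intervals share a library, so the library of 24 hpi enters the last 2 in opposite directions. From 0 to 3 hpi, 3106 bins (6.63%) were higher at the later and 236 (0.503%) at the earlier time, and from 3 to 12 hpi 4263 (6.76%) and 915 (1.45%). From 12 to 24 hpi only 82 bins (0.135%) were higher at 24 hpi and 5984 (9.87%) higher at 12 hpi, with a median log2 ratio of -0.68. From 24 to 48 hpi, 2440 (5%) were higher at 48 hpi and 453 (0.929%) higher at 24 hpi, with a median of 0.31. Between 0 and 48 hpi 8827 (17.7%) and 4575 (9.17%) were called. The share of reads in compared bins was 19.4% at 12 hpi and 14.1% at 24 hpi from 12 to 24 hpi, and 13.1% at 24 hpi and 14.6% at 48 hpi from 24 to 48 hpi. The library of 24 hpi had the lower share in both intervals that contain it, and its part in the bins higher at 48 hpi was not tested.

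Bins with and without a consensus were set side by side in each interval. The GC-scaled median log2 ratio of bins with the AP-1 consensus minus that of bins without it was 0.09 from 0 to 3 hpi, 0.17 from 3 to 12 hpi, 0.16 from 12 to 24 hpi and 0.33 from 24 to 48 hpi. For ETS-IRF the differences were -0.05, -0.16, -0.10 and -0.14. From 0 to 3 hpi PU.1 (-0.18) and C/EBP (0.16) differed by more than either, as did EGR (0.138, 32 bins), the ETS consensus of promoters (0.102) and the CRE (0.093). From 3 to 12 hpi the E-box stood at -0.15. From 24 to 48 hpi PU.1 stood at 0.12. Over the whole course from 0 to 48 hpi the differences were 1.11 for AP-1 and -0.56 for ETS-IRF, and EBF1 stood at -0.38, C/EBP at 0.26 and PU.1 at -0.02. EGR stood at 0.42 (30 bins), the ETS consensus of promoters at 0.38 (449 bins) and the MARE letters at 0.25. Each adjacent interval had its own bins, chosen by the reads of its 2 libraries (46883, 63023, 60636 and 48762 bins), and the intervals differ in length. The differences are therefore not of the same bins. As printed, that for AP-1 was largest from 24 to 48 hpi among the 4 adjacent intervals. For ETS-IRF, -0.16 from 3 to 12 hpi lay close to -0.14 from 24 to 48 hpi.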

How the data were processed

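PU.1, C/EBPα and C/EBPβ ChIP-seq read positions were used from 15 libraries of 0, 3, 12, 24 and 48 hpi, 1 library per factor and time point, and the C/EBPα libraries of the first hour were not used. The deposited values are positions of single reads (1 line per read, counted here as raw read counts with no normalization): the authors used ELAND or Bowtie, allowed no mismatch to mm9, removed identical reads and kept uniquely aligned reads. The submitters' processing notes name Bowtie, HOMER and mm9, with no versions given in the sources used here.

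Here 1 read was kept per position and strand, 5′ ends were moved 75 bp inward, and reads were counted in bins of 200 bp on chromosomes 1 to 19. In the PU.1 libraries, 8859 to 14580 reads on unplaced contigs were left out, and no duplicate reads were found. The library of 24 hpi was thinned at random by 890036 reads (seed 24048). Calls, log2 ratios and the ranking of regions used a pseudocount of 1 read, and ratios printed for single regions and bins used none. Bins with 10 or more reads in either library were compared, and a call needed 2-fold and an exact 99% binomial interval. Values carry exact 95% intervals, which cover counting error of reads, or of bins taken as independent, only. With 1 library per time point no test was made. Positions and sequences came from the mm9 genome and its GENCODE annotation. GC content and consensus matches on both strands were read from the bin. Python 3.11.15, NumPy 2.4.6, SciPy 1.17.1, pysam 0.24.0, samtools 1.23.1 and matplotlib 3.10.9 were used, and the calling was tested on simulated data.

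Regions named were the 12 with the largest ratio in each direction, with 30 or more reads in the higher library and a protein-coding start site within 100 kb, 1 per gene. The 4 genes per list with the most reads and the 6 most covered bins were added. List genes that were called and the 80-bp stretches were chosen after their values were seen. The bins, lists and motifs were chosen with earlier results of these data known. The GC-class scalings and the limit to 45% to 50% GC were added after the data were seen. Other alternatives changed the read minimum, thinning, move, bin size, scaling, pseudocount, interval, fold, promoter and gene distances and the rule for a bound bin.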

Additional observations from a re-analysis of the deposited data

How the results depend on the processing

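No paired analysis was possible because each time point had 1 library. Depth limits single bins, since a bin of 10 reads has a wide counting interval, and replicate spread is unknown. The planned values were 3460 bins higher at 48 hpi, 2425 higher at 24 hpi, a median log2 ratio of 0.06, a ratio of read shares of 1.09, 52.2% of bins higher at 48 hpi bound by PU.1 at 0 hpi and 28.0% by C/EBPβ at 48 hpi, 24.8% of bins higher at 24 hpi at promoters, AP-1 in 23.6% of bins higher at 48 hpi and ETS-IRF in 17.3% of bins higher at 24 hpi. The values that moved follow in that order, and their causes were not tested. With 10 reads in both libraries they were 1699, 694, 0.093, 1.12, 74.0%, 34.7%, 27.4% and, for ETS-IRF, 24.1%. With 20 reads 1334 bins were higher at 24 hpi, with 0.19, 1.15, 62.5%, 31.0% and ETS-IRF 20.9%. A 95% interval gave 6739, 6169, 48.2%, 25.4%, 26.6%, 20.9% and 14.3%, and a stricter interval than 99% gave 1541, 713, 58.5%, promoters 20.8%, AP-1 26.6% and ETS-IRF 22.6%. A 3-fold threshold gave 1876 bins higher at 48 hpi, 33.2%, 22.5%, AP-1 25.1% and ETS-IRF 15.5%, and 1.5-fold 63.6%, 33.3% and AP-1 21.6%. Wider bins gave a median of 0, 1.05, 40.2%, 23.6%, AP-1 33.01% and ETS-IRF 22.2%. Without thinning the median was -0.00489, the ratio of shares 1.08 and the share bound at 0 hpi 50.0%. A move of 100 bp gave 0.040 and 1.09, background scaling 0.069, median scaling 0 and 49.0%, and a pseudocount of 5 gave 48.2%. Bound at 10 times the mean, C/EBPβ was at 17.7%, and narrower promoters held 19.3%.

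GC-class scaling gave 1012 bins higher at 24 hpi, a median of 0.26, promoters 8.40%, ETS-IRF 24.9% and 2 list genes higher at 24 hpi in place of 5. Its strength medians were 0.18, 0.30, 0.43 and 0.58 from 10, 20, 40 and 80 reads. It gave 82 bins higher and 5984 lower at 24 than at 12 hpi, against 234 and 3593 by depth, and 453 higher at 24 than at 48 hpi, against 1133. With the median also set to 1 the values were 1664 bins higher at 48 hpi, 42.2%, 25.8%, 9.60%, AP-1 29.1% and ETS-IRF 22.9%. With depth scaling and bins of 45% to 50% GC only they were 829, 421, 0.17, promoters 4.51%, AP-1 27.4% and ETS-IRF 27.6%. Classes by reads at 12 hpi had medians of -0.14, -0.084, 0.040 and 0.18. Each pair thinned to its own smaller library gave 471 and 7045 bins from 12 to 24 hpi and 3460 and 2425 from 24 to 48 hpi. All bins of a gene summed gave 3 list genes higher at 48 hpi in place of 9, and bins within 20 kb 2 higher at 24 hpi. In each of these alternatives that moved a motif share, AP-1 stayed in 20.9% or more of bins higher at 48 hpi and ETS-IRF in 14.3% or more of bins higher at 24 hpi. Apart from GC-class scaling and the limit to 45% to 50% GC, the other direction and uncalled bins were not counted in them. The contrast between the directions was therefore not checked there, and the wider bins have no share of all bins beside them.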
